A study of Drosophila melanogaster with 6 samples.

Results

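The genes described here are 8 Drosophila melanogaster genes that were isolated or named for their response to the steroid hormone ecdysone: ImpE1, ImpE2, ImpE3, ImpL1, ImpL2, MsrA, Eip63E and E23. They were taken by symbol from the platform annotation of the array, every probe set of a gene included, which gave 11 of the 18769 probe sets that are not array controls (a probe set is the group of array probes read together for a transcript). ImpE1 has 4 probe sets and the other genes have 1 each. A further probe set annotated to both Eip63E and CG10038 was left out because its signal cannot be assigned. According to a RefSeq gene table, ImpE1, ImpE2, ImpL1, ImpL2, MsrA and Eip63E lie on chromosome arm 3L, ImpE3 on 3R and E23 on 2L, so none is X-linked. In that table the genes ImpE2 and Eip63E follow each other directly.

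RNA came from whole male larvae of the third instar, pooled in groups of at least 50, with 3 independent preparations per genotype and 1 array for each. The mutants are homozygous for msl21, an EMS-induced allele of msl2 (genotype yw/Yy+;msl21/msl21), and the controls carry the same allele over a wild-type copy (genotype yw/Yy+;msl21/+). All larvae of both groups carry the yw X chromosome and a Y chromosome with y+, so the control is a heterozygote and not a strain free of the allele. MSL2 is a subunit of the complex that raises transcription of the single X chromosome of male flies. The series asks whether expression of the X and of the autosomes depends on it.

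Ecdysone is the moulting hormone of insects. It binds a receptor made of the EcR and Usp proteins, which switches on a small set of early regulators and, through them, late target genes. Pulses of the hormone near the end of larval life start pupariation, during which the imaginal discs, the sacs of larval tissue that form adult legs and wings, turn inside out, while the salivary glands secrete the glue that fixes the puparium. The Imp genes were isolated from discs cultured with the hormone, as transcripts found on membrane-bound polysomes, which makes secreted and membrane proteins. The letter E marks transcripts that respond early and L those that respond late. The other members act inside cells or at their membrane: MsrA encodes a methionine sulfoxide reductase, an enzyme that repairs oxidised methionine, Eip63E a kinase of the cyclin-dependent family, and E23 an ABC transporter that dampens the ecdysone response.

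Values are log2 RMA expression values, in which a difference of 1 is a doubling, and are comparable between arrays for a given probe set but not between genes. Array medians ranged from 5.88 to 6.06. The array of mutant replicate 2 stands apart: the mean difference between 3' and 5' control probe sets, a sign of RNA quality, was 1.33 there, against 2.19 in mutant replicate 1, 1.88 in mutant replicate 3 and 1.80 to 1.95 in the controls. A larger value means relatively less signal from the 5' end. It was smallest in mutant replicate 2 and largest in mutant replicate 1. Leaving out mutant replicate 2 therefore does not remove the array with the weakest 5' signal. Differences of members are given with and without mutant replicate 2. Those of ImpE1, ImpE2, ImpE3, ImpL1 and MsrA are also given without mutant replicate 1, and that of ImpL1 without mutant replicate 3. As whole larvae were used, fewer cells of a type and less RNA per cell cannot be told apart.

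All 8 genes, read by their brightest probe set, had a mean difference above 0, but they reached it through different arrays. Their median difference was 0.46 over the 6 arrays and 0.09 without mutant replicate 2, and of the 11 probe sets 10 were above 0. ImpE1 and MsrA had higher values in all 3 mutant pools than in any control pool, ImpL1 was much higher in mutant replicates 1 and 3 only, and ImpE2, ImpE3, ImpL2, Eip63E and E23 had their highest value in mutant replicate 2. By limma over all 18769 probe sets, with Benjamini-Hochberg adjustment and a threshold of 0.05, 0 of the 11 probe sets were called in either direction, against 0.016% of all probe sets called higher and 0.016% called lower. At an unadjusted p under 0.05 in the same fit, 4 of the 11 were higher and 0 lower, against 3.67% and 3.85% of all probe sets. These 4 were 2 probe sets of ImpE1 and those of ImpL1 and MsrA, so they stand for 3 of the 8 genes. The dimmer of the 2 ImpE1 probe sets had an unadjusted limma p of 0.0499. Mutant values lay above all control values for 3 of the 11 (2 probe sets of ImpE1 and that of MsrA), against 6.07% of all probe sets, and below them for 0, against 5.79%. Without mutant replicate 2 the limma test called 3 of the 11 higher, for ImpE1, ImpL1 and MsrA, against 1.91% of all probe sets, and 0 lower, against 5.17%. Without mutant replicate 1 it called 0 of the 11, against 0.00533% of all probe sets higher and 0.0107% lower. The differences were then 1.68 for ImpE1, 1.33 for ImpL1 and 0.67 for MsrA (limma adjusted p = 0.223, 0.9 and 0.532). With array weights the limma test called 1 higher, that of ImpE1, against 0.17%. With the 3' minus 5' value of each array as a covariate it called 2, those of ImpE1 and ImpL1, against 0.815%.

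**Figure D1:**
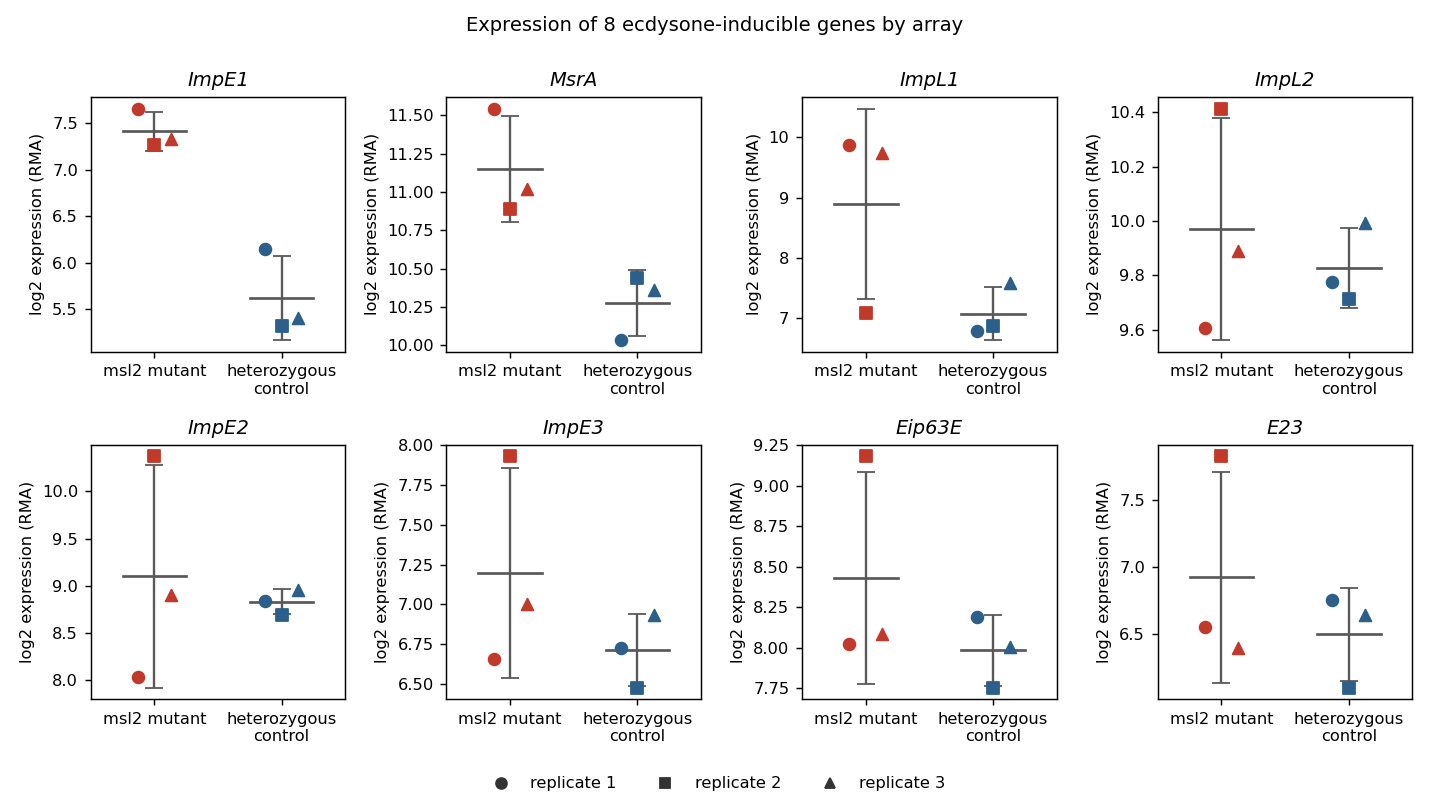
Log2 expression of the 8 genes (for ImpE1 the brightest of its 4 probe sets), with 3 msl2 mutant arrays left and 3 heterozygous control arrays right in each panel. Symbols mark the replicate, horizontal lines the group mean and bars the SD, and axes do not start at 0. The squares of mutant replicate 2 stand highest for ImpL2, ImpE2, ImpE3, Eip63E and E23, and for ImpL1 its square lies at 7.08, among the controls.

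Of the early Imp genes, ImpE1 showed the clearest separation of the genotypes. It encodes a protein of the apical surface of disc cells with repeats like those of the low-density lipoprotein receptor. Its brightest probe set, 1625625_at, had values of 7.66, 7.26 and 7.33 in the mutants and of 6.14, 5.32 and 5.40 in the controls, given here and below in the order of replicates 1, 2 and 3. The mutant pools were close to each other, and the lowest of them lay 1.12 above the highest control. The means were 7.42 ± 0.21 in the mutants and 5.62 ± 0.46 in the controls (SD, n = 3 each), a difference of 1.80 (SE 0.25), or 3.47-fold, with a limma adjusted p of 0.116. It was 1.87 (SE 0.27, limma adjusted p = 0.0204) without mutant replicate 2, and 1.83 (limma adjusted p = 0.0142) with the 3' minus 5' covariate. The size of the ImpE1 difference barely moved between these fits, while the call did.

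The other ImpE1 probe sets were dimmer and did not all show the same. Probe set 1631375_a_at had 4.18, 3.61 and 3.73 in the mutants and 3.45, 3.07 and 3.54 in the controls, which is apart by only 0.07, with a difference of 0.48 (SE 0.20, limma adjusted p = 0.664). Probe set 1634661_at had 5.69, 4.67 and 5.62 in the mutants and 4.53, 5.09 and 4.99 in the controls, so that mutant replicate 2 fell among the controls. The difference of 0.46 (SE 0.30) had a limma adjusted p of 0.8, and leaving out that array gave 0.78 (SE 0.19, limma adjusted p = 0.0551). The dimmest, 1634617_at, lay between 3.20 and 3.54 on all 6 arrays and differed by -0.15 (SE 0.13, limma adjusted p = 0.89). Both 1631375_a_at and 1634617_at were among the dimmest 25% of probe sets, where RMA compresses differences. The separation in ImpE1 thus rests mainly on its brightest probe set.

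ImpE2 and ImpE3 varied more between the mutant pools than between the control pools. ImpE2, which encodes a secreted protein of the apical disc surface, had 8.04, 10.37 and 8.90 in the mutants and 8.85, 8.70 and 8.96 in the controls. Mutant replicate 1 was thus the lowest and mutant replicate 2 the highest of the 6 arrays, 1.54 above the control mean, while the controls stayed within a narrow band. The SD of ImpE2 was 1.18 among the mutants and 0.13 among the controls, and the difference was 0.27 (SE 0.53, limma adjusted p = 0.993). Leaving out mutant replicate 2 turned the ImpE2 difference to -0.36 (SE 0.25, limma adjusted p = 0.493). Leaving out mutant replicate 1 instead gave 0.80 (SE 0.41, limma adjusted p = 0.875). ImpE3, another gene of the early class, had 6.66, 7.93 and 7.0 in the mutants and 6.73, 6.48 and 6.93 in the controls. Mutant replicate 2 lay 1.22 above the control mean, mutant replicate 3 barely above the highest control and mutant replicate 1 among the controls. The ImpE3 difference was 0.49 (SE 0.33, limma adjusted p = 0.802), and 0.12 (SE 0.18, limma adjusted p = 0.774) without mutant replicate 2. Without mutant replicate 1 it was 0.75 (SE 0.30, limma adjusted p = 0.758). In the RefSeq table the gene CG2747 overlaps ImpE3. The probe set of CG2747 had 6.84, 6.96 and 6.39 in the mutants and 6.37, 6.22 and 6.21 in the controls, also highest in mutant replicate 2 but close to it in mutant replicate 1 (0.47, SE 0.18, limma adjusted p = 0.622).

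Of the late Imp genes, ImpL1 had the largest range of all members. Its values were 9.88, 7.08 and 9.74 in the mutants and 6.78, 6.87 and 7.58 in the controls. Mutant replicates 1 and 3 lay 2.81 and 2.66 above the control mean, and mutant replicate 2 differed from it by 0.00. Over all 6 arrays the ImpL1 difference was 1.82 (SE 0.73, limma adjusted p = 0.644), and the SD was 1.58 for mutant and 0.44 for control pools. Leaving out mutant replicate 2 gave 2.73 (SE 0.25), or 6.66-fold, with a limma adjusted p of 0.00703. That array is the mutant pool at control level, so leaving it out had to raise the difference and is no test of ImpL1. Without mutant replicate 1 the ImpL1 difference was 1.33 (limma adjusted p = 0.9). Without mutant replicate 3 it was 1.41 (limma adjusted p = 0.737). ImpL1 was also called with the 3' minus 5' covariate, at 2.04 (limma adjusted p = 0.0424). This order of the mutant arrays is the opposite of that in ImpE2.

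ImpL2 moved little. It encodes a secreted protein with immunoglobulin domains that binds insulin-like peptides and lowers insulin signalling. The values were 9.61, 10.41 and 9.89 in the mutants and 9.77, 9.71 and 9.99 in the controls, with mutant replicate 2 the highest and mutant replicate 1 the lowest of the 6 arrays. The difference in ImpL2 was 0.14 (95% confidence interval -0.38 to 0.67, limma adjusted p = 0.981), and -0.08 (SE 0.15, limma adjusted p = 0.825) without mutant replicate 2.

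Among the genes of the insulin-like peptides that ImpL2 protein can bind, Ilp2 and Ilp5 had lower values in all mutant pools. Ilp2 had 7.17, 6.77 and 7.24 in the mutants and 7.55, 7.58 and 7.42 in the controls (-0.46, SE 0.16, limma adjusted p = 0.596). Ilp5 had 4.65, 5.70 and 5.90 in the mutants and 6.39, 6.0 and 6.18 in the controls (-0.77, SE 0.33, limma adjusted p = 0.665). Mutant replicate 1 was by far the lowest for Ilp5, and the groups were apart by only 0.10. The receptor gene InR was higher without overlap, at 5.50, 5.39 and 5.30 in the mutants and 5.15, 4.87 and 4.83 in the controls (0.45, SE 0.14, limma adjusted p = 0.53). None of these passed the test. Ilp7 differed by -0.04, Ilp8 by 0.00 and Sdr, which encodes another secreted binding protein, by -0.05, all with overlapping groups. Of the 8 measured genes of the insulin list, 0 were called, 4 were above 0 and 4 below, with a median of -0.02, which was 0.15 without mutant replicate 2. Without overlap, 2 of the 8 were lower and 1 higher, against 873 and 790 of all 11982 genes.

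MsrA was the other member, besides ImpE1, whose values did not overlap between the genotypes. Its values were 11.54, 10.89 and 11.02 in the mutants and 10.03, 10.44 and 10.36 in the controls. The lowest mutant lay 0.45 above the highest control. The means were 11.15 ± 0.35 in the mutants and 10.28 ± 0.21 in the controls (SD, n = 3 each), a difference of 0.87 (SE 0.21), or 1.83-fold, with a limma adjusted p of 0.361. With mutant replicate 2 left out, the MsrA difference was 1.0 (SE 0.20, limma adjusted p = 0.0366). SelR, which encodes the reductase for the other stereoisomer of methionine sulfoxide, had overlapping values of 11.09, 10.50 and 10.91 in the mutants and 10.98, 10.91 and 10.77 in the controls (-0.05, SE 0.18, limma adjusted p = 0.998). Of the 6 measured genes of the methionine sulfoxide and thioredoxin list, 0 were called and all 6 were below 0, with a median of -0.13. The list holds the X-linked genes TrxT and dhd, thioredoxins of the testis and the ovary, at -0.57 and -0.26, and the X-linked Trxr1. Leaving out mutant replicate 2, TrxT fell by 0.98 (limma adjusted p = 0.0298).

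The kinase gene Eip63E had 8.02, 9.18 and 8.09 in the mutants and 8.19, 7.76 and 8.01 in the controls. Mutant replicate 2 lay 1.20 above the control mean and the other mutant arrays among the controls. The left-out probe set shared with CG10038 showed no such rise. It had 9.33, 9.61 and 9.29 in the mutants and 9.31, 9.39 and 9.56 in the controls, but cannot be assigned to Eip63E. The difference in Eip63E was 0.44 (SE 0.32, limma adjusted p = 0.825), and 0.07 (SE 0.16, limma adjusted p = 0.852) without mutant replicate 2. CycY, which encodes the cyclin that activates this kinase, had 7.86, 7.46 and 7.36 in the mutants and 7.58, 7.35 and 7.22 in the controls (0.18, SE 0.18, limma adjusted p = 0.925) with its highest value in mutant replicate 1. Of the 6 measured genes of the list that holds CycY and related kinases, 0 were called, 3 were above 0 and 3 below. The X-linked Cdk7 differed by -0.47 and Cdk2 by 0.16.

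The transporter gene E23 had 6.55, 7.82 and 6.39 in the mutants and 6.75, 6.10 and 6.64 in the controls. As with Eip63E, only mutant replicate 2 lay outside the range of the controls, 1.33 above their mean. The E23 difference was 0.42 (SE 0.39, limma adjusted p = 0.898), and -0.03 (SE 0.21, limma adjusted p = 0.962) without that array. Of 12 other ABC transporter genes of the white type, 0 were called, 9 were above 0 and 3 below, and their medians relative to the control mean were 0.03, 0.41 and -0.03 in mutant replicates 1, 2 and 3. The median difference of the 12 was 0.13, and -0.01 without mutant replicate 2. The smallest p belonged to CG11069 (0.18) and CG9663 (0.16).

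**Figure D2:**
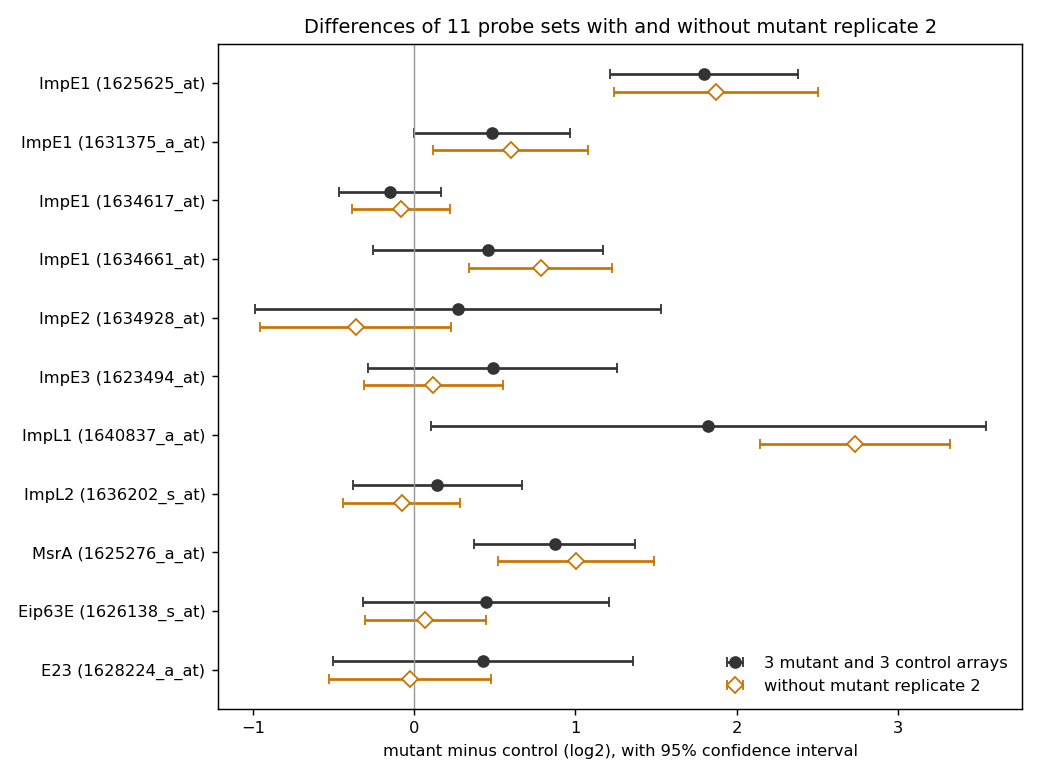
Difference between msl2 mutant and heterozygous control (log2, x axis) for the 11 probe sets, with 95% confidence intervals from limma that are not adjusted for the number of probe sets. Filled circles use 3 mutant and 3 control arrays and open diamonds leave out mutant replicate 2. Without that array the interval of ImpL1 narrows around 2.73, and ImpE2, ImpL2 and E23 change sign.

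Counted by array, the members were uneven across the mutant pools. In mutant replicate 2, 8 of the 11 probe sets lay above all controls, against 31.9% of all probe sets, and 5 of the 11 lay above the other 5 arrays, against 23.8%. Those 5 are ImpE2, ImpE3, ImpL2, Eip63E and E23. In mutant replicates 1 and 3, 5 of the 11 lay above mutant replicate 2 and all controls together, against 13.5%. These 5 are ImpL1, MsrA and the 3 ImpE1 probe sets other than 1634617_at, so they stand for 3 of the 8 genes. Mutant replicates 2 and 3 were close in the brightest ImpE1 probe set (7.26 and 7.33) and in MsrA (10.89 and 11.02). They were far apart in ImpL1 (7.08 and 9.74). Mutant replicate 3 gave the highest value for 0 of the 11, against 21.1%. In this way each gene, read by its brightest probe set, showed either arrangement. They were read from the values, so they are a description of these 6 arrays with no test.

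Genes of other tissues also differed between the mutant arrays. Salivary glue genes, markers of late larval age, had a median of -5.12, 0.62 and 0.12 relative to the control mean in mutant replicates 1, 2 and 3. Of these 11 genes, 10 lay below all controls in mutant replicate 1, against 4148 of all 11982 genes read by their brightest probe set. In mutant replicate 2, 8 of the 11 lay above all controls, against 4581 of the 11982. The mean log2 level of the glue genes ranged from 7.52 to 12.60 in the mutants and from 11.67 to 12.14 in the controls. For 5 fat body genes the medians were -1.81, 0.61 and 0.28, with mean levels from 8.71 to 11.50 in the mutants and from 10.73 to 11.15 in the controls. For 22 testis genes they were -0.81, 0.03 and -0.77, with mean levels from 6.71 to 7.71 in the mutants and from 7.38 to 7.69 in the controls. Of these 22, 19 lay below all controls in mutant replicate 1, against 4148 of the 11982 genes. In mutant replicate 3, 20 of the 22 did, against 4769 of the 11982. The 20 imaginal disc genes had 0.03, 0.32 and 0.00, with mean levels from 5.57 to 5.94 in the mutants and from 5.47 to 5.73 in the controls. In mutant replicate 2, 13 of the 20 lay above all controls, against 4581 of the 11982 genes. The 11 midgut genes had medians of 0.54, 0.26 and 0.46, against at most 0.13 in the controls, in the mutant arrays where ImpE1 and MsrA were also high. Their mean levels ran from 10.67 to 11.49 in the mutants and from 10.02 to 10.39 in the controls. The midgut genes did not all go the same way. In mutant replicate 2, 4 lay above all controls and 3 below, the lowest at -1.15, against 4581 and 3805 of the 11982 genes. In mutant replicate 3, 7 lay above and 2 below, against 3057 and 4769. Of the midgut genes, 4 were above the controls without overlap, against 790 of the 11982 genes, and 0 were called. Without mutant replicate 2, 3 midgut genes were called higher, against 316 of the 11982. In that fit 11 testis genes were called lower, against 867 of the 11982.

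The genes of smallest p in these lists were Mal-A6 (3.20) and LysP (1.42) of the midgut, comr (-0.60) and nht (-0.65) of the testis, fj (0.45) and salm (0.49) of the discs, and the X-linked ng3 (-0.43) and ng1 (-0.57) of the salivary gland. In the fat body list they were Fbp1 (-1.80) and Yp1 (0.12). Medians of the lists for body wall muscle, the nervous system and hemocytes were -0.16, 0.16 and 0.07, with 0 genes called, and their genes of smallest p were Mlc2 (-0.90), TpnC73F (-0.27), nSyb (0.33), VGlut (0.26), He (-0.83) and srp (0.50). The part of these tissues, of larval age and of RNA quality in the differences of the members was not tested. Testis medians were low in the arrays where ImpL1 was high, and ImpE2 was lowest in mutant replicate 1, where glue and fat body genes were lowest. The other members did not all follow there. Relative to the control mean, ImpL2 lay at -0.22 in mutant replicate 1, and ImpE3, Eip63E and E23 at -0.05, 0.04 and 0.05. ImpE1, ImpL1 and MsrA lay at 2.04, 2.81 and 1.26 in that array.

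**Figure D3:**
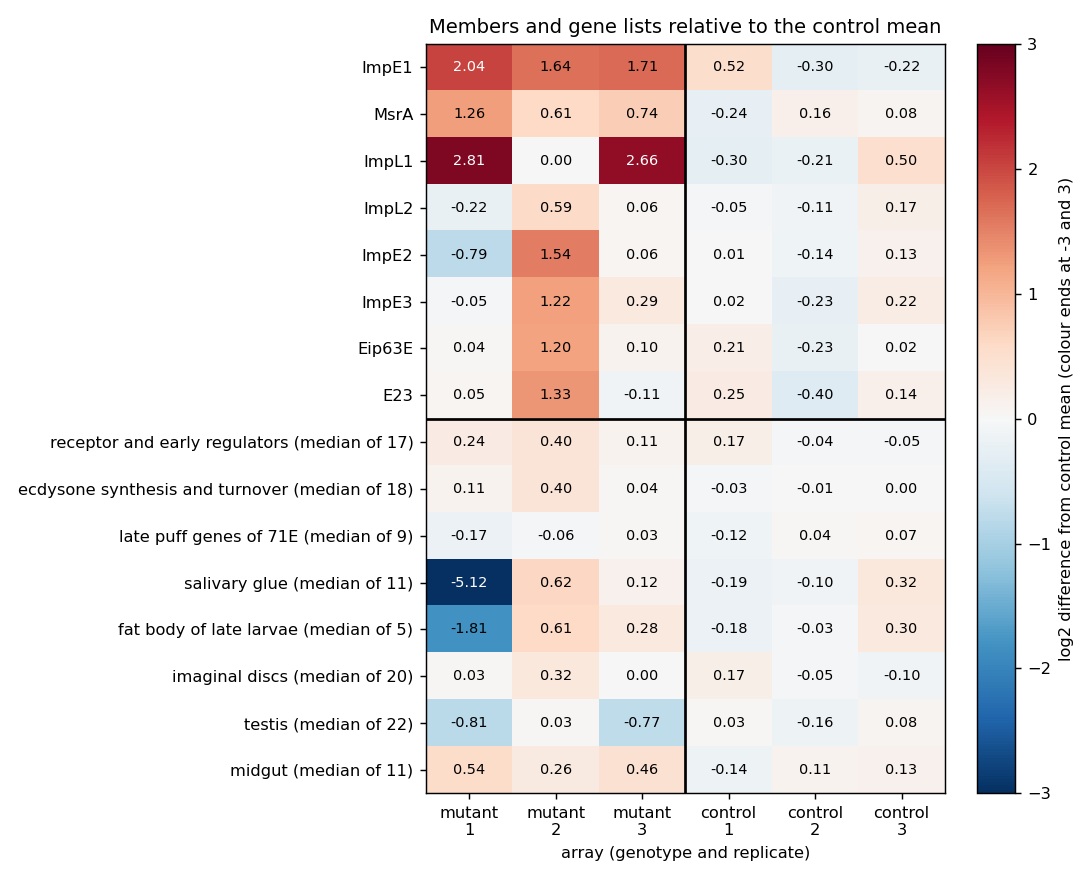
Log2 difference of each array from the control mean (numbers and colour) for the 8 genes above the line and for the median of 8 gene lists below it, with mutant arrays left of controls. The column of mutant replicate 2 is highest for ImpE1, at 1.64, also high for ImpE2, ImpE3, Eip63E and E23, but 0.00 for ImpL1. The column of mutant replicate 1 is -5.12 for glue and -0.79 for ImpE2.

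The hormone receptor and the early regulators were not called either. EcR had 6.25, 7.71 and 6.48 in the mutants and 6.55, 5.93 and 6.54 in the controls (0.48, SE 0.39, limma adjusted p = 0.87), with mutant replicate 2 highest, as in E23, and a difference of 0.03 without it. The X-linked partner gene usp had 6.75, 7.12 and 6.66 in the mutants and 6.93, 6.69 and 6.56 in the controls (0.12, SE 0.18, limma adjusted p = 0.98). Of the 17 measured genes of the receptor and early regulator list, 0 were called, 14 were above 0 and 3 below, and their median was 0.27. Without mutant replicate 2 the median was 0.16 and 1 gene was called higher, against 316 of all 11982 genes. Over all 11982 genes, each read by its brightest probe set, 6062 were above 0 and the median was 0.00.

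The genes with the smallest p in that list were ftz-f1 and Hr3, nuclear receptors that act after the early genes. For ftz-f1 the values were 5.38, 4.27 and 5.12 in the mutants and 4.21, 3.83 and 4.02 in the controls (0.90, SE 0.29, limma adjusted p = 0.537), without overlap and lowest among the mutants in replicate 2. With that array left out, ftz-f1 rose by 1.23 (limma adjusted p = 0.0187). Hr3 was dim on every array, at 3.49, 2.81 and 2.71 in the mutants and 2.42, 2.49 and 2.33 in the controls (limma adjusted p = 0.62). The early regulators br and Eip78C, chosen after their values were seen, were, like ImpE2, highest in mutant replicate 2, and their differences of -0.07 and 0.59 were -0.84 and -0.31 without it. The values of br were 7.0, 10.37 and 9.10 in the mutants and 9.31, 8.35 and 9.02 in the controls. Those of Eip78C were 5.41, 8.36 and 5.95 in the mutants and 6.28, 6.44 and 5.24 in the controls. Not all genes of that list went this way. In mutant replicate 2, 13 of the 17 lay above all controls and 4 below, against 4581 and 3805 of all 11982 genes.

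Of the 18 measured genes for ecdysone synthesis, uptake and turnover, 0 were called, 14 were above 0 and 4 below, with a median of 0.10. Leaving out mutant replicate 2, Ptth, which encodes the brain hormone that drives ecdysone synthesis, rose by 0.61 (limma adjusted p = 0.0408) and the list median was 0.08. Medians relative to the control mean were 0.11, 0.40 and 0.04 in mutant replicates 1, 2 and 3. In mutant replicate 2, 10 of the 18 lay above all controls, against 4581 of all 11982 genes. The smallest p in this list belonged to shd, which encodes the enzyme that makes the active hormone. Its values were 8.04, 8.88 and 7.96 in the mutants and 7.63, 7.79 and 7.88 in the controls (0.53, SE 0.26, limma adjusted p = 0.714, and 0.23 without mutant replicate 2), and ecd had a difference of 0.35 (SE 0.18, limma adjusted p = 0.726).

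The late puff genes of 71E, which the hormone switches on in salivary glands after glue synthesis, were dim, with 8 of 9 measured genes among the dimmest 25% of probe sets and a median difference of -0.03. The smallest p belonged to Eig71Ed (-0.21) and Eig71Ei (0.15). Eig71Ee was the exception in level and is also counted with the glue genes. Of 9 measured genes of disc eversion and pupal cuticle, 0 were called, 4 were above 0 and 5 below, and their median was -0.17, or 0.15 without mutant replicate 2. Sb, a protease needed for disc eversion, was higher without overlap, at 4.77, 4.96 and 4.92 in the mutants and 4.44, 4.21 and 4.54 in the controls (0.49, SE 0.14, limma adjusted p = 0.484). The X-linked integrin gene mys was lower without overlap (-0.35, SE 0.13, limma adjusted p = 0.601).

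The genes most like each member across the 6 arrays differed between the members. Likeness was the root mean square difference of log2 values centred on their mean over the 6 arrays, over 8043 genes in the brighter 50%. It was computed for the 7 members whose values span 1 log2 unit or more, that is without ImpL2, and it is a description of arrays that share pools. For E23 the closest gene was EcR, with a root mean square difference of 0.12, followed by Eip63E with 0.13. Eip63E and E23 were the closest pair among the members, and the pair farthest apart was ImpE2 and ImpL1 with 1.76. The neighbours ImpE2 and Eip63E were 0.37 apart.

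For ImpL1 the closest genes were CG14564 (0.20), CG14326 (0.28) and CG12971 (0.28). CG14564 had 10.45, 7.89 and 10.62 in the mutants and 7.87, 7.55 and 8.71 in the controls. The gene before ImpL1 on the chromosome, CG14107, also had this pattern, with 10.98, 7.45 and 10.70 in the mutants and 8.12, 8.14 and 8.43 in the controls (1.48, SE 0.87, limma adjusted p = 0.769). With mutant replicate 2, which lay below the controls, left out, the CG14107 difference was 2.61 (limma adjusted p = 0.00423). The gene after ImpL1, CG14110, stayed between 3.75 and 4.10 on all arrays.

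MsrA was closest to CG13659 (0.06), CG6830 (0.07) and CG3635 (0.09). All of these had higher values in each mutant than in each control, which follows from their being picked for values like those of MsrA. CG13659 had 8.72, 8.03 and 8.31 in the mutants and 7.33, 7.67 and 7.64 in the controls. ImpE1 was closest to CG13461 (0.32), Zip89B (0.32), a zinc transporter gene, and CG42822 (0.40). ImpE2 was closest to CG5854 (0.10), Fatp3 (0.12) and Ypel (0.12), and ImpE3 to Gal (0.06), trn (0.10) and O-fut1 (0.11). Eip63E was closest to TfAP-2 (0.10), Nep2 (0.11) and Rb97D (0.12).

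**Figure D4:**
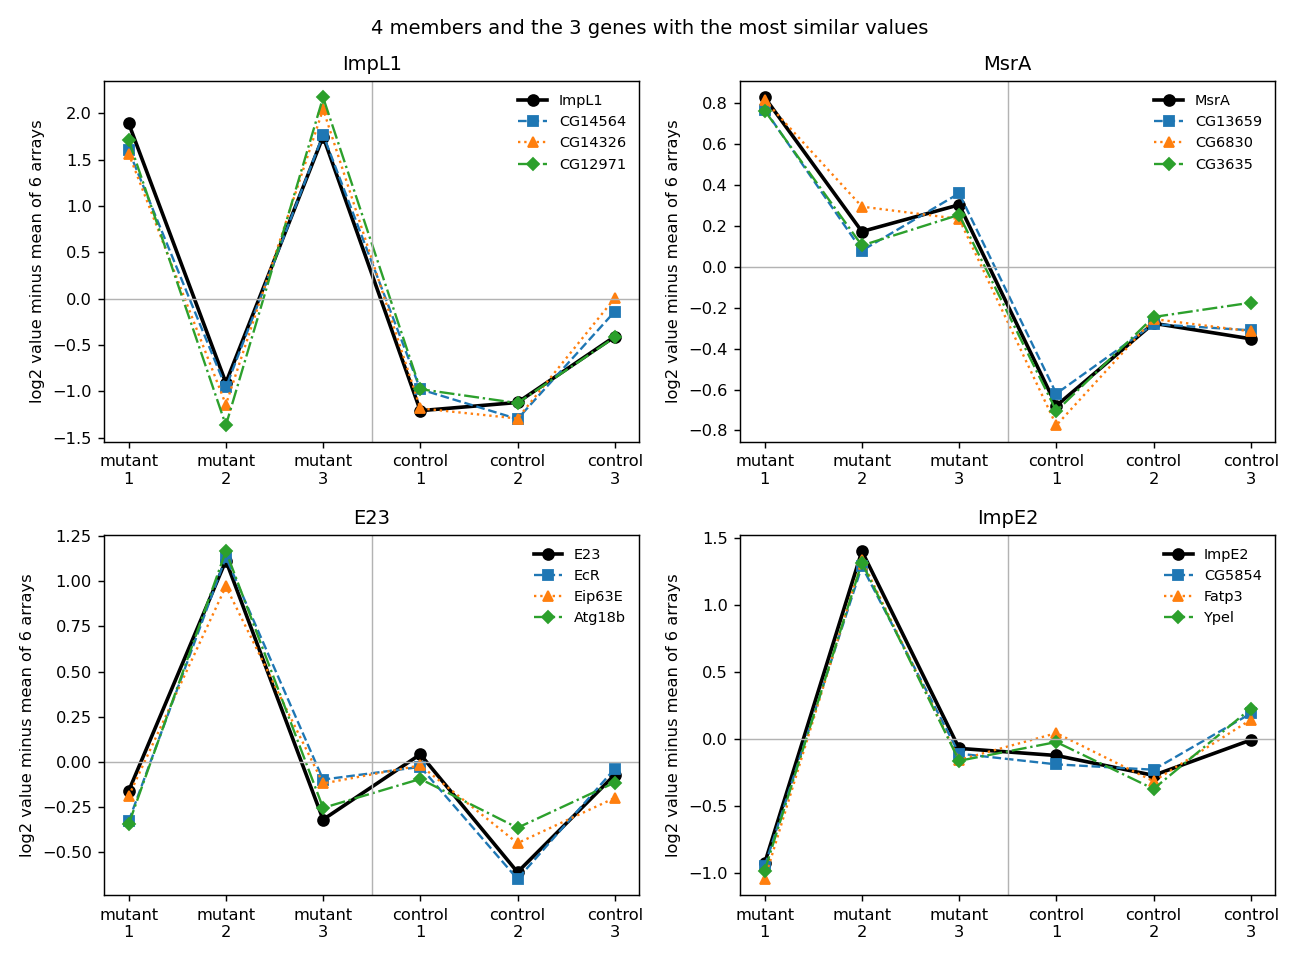
Log2 values of ImpL1, MsrA, E23 and ImpE2 (black) and of the 3 genes with the smallest root mean square difference from each (coloured), each centred on its mean over the 6 arrays, with mutant arrays left of controls. ImpL1 and its like genes are low in mutant replicate 2, where E23 with EcR and ImpE2 with its like genes are high.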

How the data were processed

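RNA of 6 pools was measured on Affymetrix Drosophila Genome 2.0 arrays. The deposited log2 values, 1 per probe set, were made by the authors with RMA, per the series' design text, and the scanner software was GCOS 1.4, per the submitters' processing notes. RMA equalises arrays, and precision is limited by their number.

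Of 18952 probe sets, 183 controls were left out, and 13647 had 1 gene symbol, 402 several and 4720 none. Names were updated through RefSeq (13544 found). Differences were fitted with limma 3.58.1 in R 4.3.3 (lmFit, eBayes, two-sided) over all other probe sets. Lists used the brightest probe set of each gene. The fit was tested on simulated data. Named genes are all members, the 2 genes of smallest p in each list, binding partners of members, and the 3 genes most like each member that spans 1 log2 unit. Others (br, Eip78C, Ptth, Trxr1, Eig71Ee and genes beside or overlapping members) were named after their values were seen. Members and lists were chosen with earlier results of these data known. Replicate numbers were not taken to pair the pools. Plots used matplotlib 3.10.9.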

Additional observations from a re-analysis of the deposited data

How the results depend on the processing

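Under 15 other settings the 11 probe sets gave 157 comparisons, of which 147 kept their direction and their side of the threshold and 6 newly passed it. Without mutant replicate 2 the differences of ImpE2, ImpL2 and E23 turned to -0.365, -0.0773 and -0.0266 (highest 0.801 and 0.325 without mutant replicate 1, and 0.69 without mutant replicate 3), and with array weights that of ImpE2 turned to -0.0996. The number of member probe sets called higher was 0 in the main comparison and 0 to 3 when single arrays were left out, the 3 without mutant replicate 2. It was 1 with array weights and 2 with the 3' minus 5' covariate, and no setting called a member lower. Leaving out single arrays, which was added after seeing the data, gave 3 to 5 member probe sets with all mutant values above the controls and 0 to 1 with all below. Of all probe sets, 3 were called higher and 3 lower. Leaving out single arrays gave 0 to 359 higher and 0 to 970 lower, the largest of both without mutant replicate 2. The count of higher ones was 0 with 1 row per gene, 1 with quantile normalization again, 32 with array weights, 5 with an intensity trend and 153 with the 3' minus 5' covariate. The count of lower ones was 8 centred on autosomal medians, 29 with array weights, 6 with an intensity trend and 156 with the covariate. The cause was not tested. With the replicate number as a replicate block, 0 were higher and 0 lower. Deviations of same-numbered pools correlated at 0.17, -0.33 and 0.06. With 3 arrays per group these values cannot decide whether the numbers pair the pools, and the main comparison took no pairing. Dim signal limits Hr3, most 71E genes and 2 ImpE1 probe sets.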
